A study of Mus musculus with 12 samples.

Results

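The 10 genes described here are used to tell resting from activated hepatic stellate cells: Reln, Dcn, Lrat, Pdgfrb, Acta2, Col1a1, Col1a2, Col3a1, Lum and Des, 10 of 32285 genes in the deposited single-nucleus RNA matrices. Their levels were read in stellate nuclei and compared with the other kinds of nuclei. Stellate nuclei were those that the authors annotated as Stellate Cells (author cluster 20) together with author cluster 27, which the authors kept among their Cultured Cells. They numbered 1220 of 53467 annotated nuclei. Of these, 880 came from Liver, 148 from Cell Suspension and 192 from Primary Hepatocytes.

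Nuclei came from 8 wild-type male mice, aged 10 to 12 weeks, with 3 samples per mouse and 24 samples in all. Liver was a piece of the median lobe, taken after the blood had been flushed out with a calcium-free buffer and before the collagenase step, Cell Suspension was the freshly isolated cells after collagenase perfusion, and Primary Hepatocytes were the cells after 24 hours on collagen in a medium with dexamethasone, insulin and serum. The strain is C57BL6J per the labels and C57BL/6NTac per the study's methods. The isolation and the culture served to obtain hepatocytes, so that the stellate nuclei in Cell Suspension and Primary Hepatocytes were those still present in a hepatocyte preparation. The 3 samples of a mouse number share 1 liver.

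Hepatic stellate cells lie between the hepatocytes and the sinusoidal endothelium and store vitamin A as retinyl esters. They are known to leave this resting state after liver injury or on plastic, when they lose the retinoid stores, take on contractile proteins and produce fibrillar collagen. Lrat and Reln are commonly read as genes of the resting cell, and Acta2, Col1a1 and Col1a2 as genes of the activated cell.

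The whole samples held 880 to 3175 nuclei and 2709659 to 32104065 UMIs (unique molecular identifiers, each taken as 1 captured RNA molecule). The stellate nuclei held 236238 to 754882 UMIs per Liver sample, 27630 to 81188 per Cell Suspension sample and 28443 to 141456 per Primary Hepatocytes sample. Their median UMIs per nucleus were 3292, 2008 and 2124 in the same order. The 24 samples were run as 6 pools of 4 samples, and 2 of these pools, 2 and 5, held both Liver and Primary Hepatocytes samples. Among all nuclei, 337 barcodes occurred in more than 1 pool, and 15 stellate nuclei carried such a barcode. Intervals and detection limits below cover counting error alone.

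The stellate label was checked against 9 markers, among them Reln, Lrat, Hand2, Colec11, Ecm1 and Dcn. All 9 were detected and over 2-fold above the other nuclei of the same sample type in cluster 20 of Liver, in cluster 20 of Cell Suspension and in cluster 27 of Primary Hepatocytes. In cluster 27 of Primary Hepatocytes Lrat rested on 3 UMIs. The 10 leading genes by fold held at least 1 of these markers in each sample type, and none of the markers of the other kinds. In cluster 27 of Primary Hepatocytes that marker was Dcn alone, itself one of the 10 genes described here. The clusters were drawn from the same RNA, so that this check describes the label and is no independent support for it. Of the Liver stellate nuclei 878 were in cluster 20 and 2 in cluster 27, and of those of Cell Suspension 144 and 4. In Primary Hepatocytes 17 were in cluster 20 and 175 in cluster 27. Comparisons with Primary Hepatocytes therefore set nuclei mostly of cluster 27 against nuclei mostly of cluster 20, and clusters drawn by the authors from the same RNA cannot be told apart from the sample types here.

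The summed level of the 9 stellate markers differed between the sample types as well, where CPM is the usual scaling of a gene's UMIs to the total UMIs of the same nuclei. It ranged from 21319 to 30335 CPM in Liver, from 15629 to 33233 CPM in Cell Suspension and from 3983 to 7016 CPM in Primary Hepatocytes. Hepatocyte markers in stellate nuclei, 7 genes with Alb and Apob among them, ranged from 1566 to 5172 CPM in Liver, from 1913 to 10134 CPM in Cell Suspension and from 1697 to 3586 CPM in Primary Hepatocytes. The 8 endothelial markers summed to 327, 226 and 616 CPM, and the 5 Kupffer cell markers to 22.4, 9.03 and 33.4 CPM, over all stellate nuclei of the 3 sample types. The higher endothelial sum in Primary Hepatocytes lay mainly in Arhgap31, at 136 CPM in Liver and 465 CPM in Primary Hepatocytes. Flt1 (71.9 and 40.4 CPM), Ptprb (43.9 and 10.5 CPM) and Clec4g had lower values, and Stab2 (36.1 and 52.7 CPM), Kdr, Adgrf5 and Pecam1 higher ones. The part of these markers of other kinds of cells in the results was not tested.

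Stellate nuclei were a smaller share of the nuclei after isolation. They averaged 4.43% ± 1.28 (SD, n = 8) of the nuclei of a Liver sample, 1.07% ± 0.541 of those of a Cell Suspension sample and 1.04% ± 0.654 of those of a Primary Hepatocytes sample (both SD, n = 8). The share was lower than in Liver in 8 of 8 mice for both, by 3.37 percentage points in Cell Suspension and by 3.39 in Primary Hepatocytes (two-sided exact permutation test, p = 0.000311 for each, adjusted p = 0.000466 over 3 comparisons). Without the nuclei of lowest demultiplexing margins (the confidence of the assignment to a sample), the differences from Liver were -1.3 points in Cell Suspension and -1.49 points in Primary Hepatocytes, smaller but still past the threshold of 0.05. Cell Suspension and Primary Hepatocytes differed by -0.0266 percentage points, less than the spread between samples (exact permutation test, p = 0.923). The single shares ran from 2.32% to 5.91% in Liver, from 0.619% to 2.35% in Cell Suspension and from 0.446% to 2.43% in Primary Hepatocytes, so that 1 Cell Suspension sample and 1 Primary Hepatocytes sample overlapped with Liver. Without the nuclei of lowest margins they ran from 0.364% to 3.9%, from 0.097% to 0.693% and from 0.0513% to 0.648% in the same order. In each sample the median margin of stellate nuclei lay below that of all nuclei. The assignment of stellate nuclei to a sample was thus less certain, which bears on each comparison of sample types below.

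In Liver stellate nuclei the 10 genes covered a wide range. Levels between genes are compared per kb of gene, introns included. This scale suits genes read mostly from introns, such as Reln, better than Lrat, which had no unspliced UMI (below). Dcn was highest at 34.5 CPM per kb, ahead of Lrat at 13, Reln at 10.9 and Col3a1 at 10.2 CPM per kb. Pdgfrb, Lum, Des and Col1a2 lay between 3.33 and 5.95 CPM per kb, Col1a1 at 1.8 and Acta2 at 0.542 CPM per kb. The order depended on this scale. Without division by length the Liver levels were 5015 CPM for Reln, 1328 for Dcn, 390 for Col3a1, 237 for Pdgfrb and 148 for Lrat. Acta2, the most used marker of activation, was the lowest of the 10 in the tissue on both scales, at 7.86 CPM before division. Per nucleus, 93.8% of the Liver stellate nuclei carried a UMI of Reln, 83.3% of Dcn, 58.6% of Col3a1, 48.2% of Pdgfrb and 36.6% of Lrat, against 9.32% of Col1a1 and 1.93% of Acta2. In the hepatocyte nuclei of Liver, with a median of 7572.5 UMIs against 3292, 15.9% carried a UMI of Reln and 2.29% one of Dcn, which gives the level in a kind of cell not known for these genes.

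**Figure D1:**
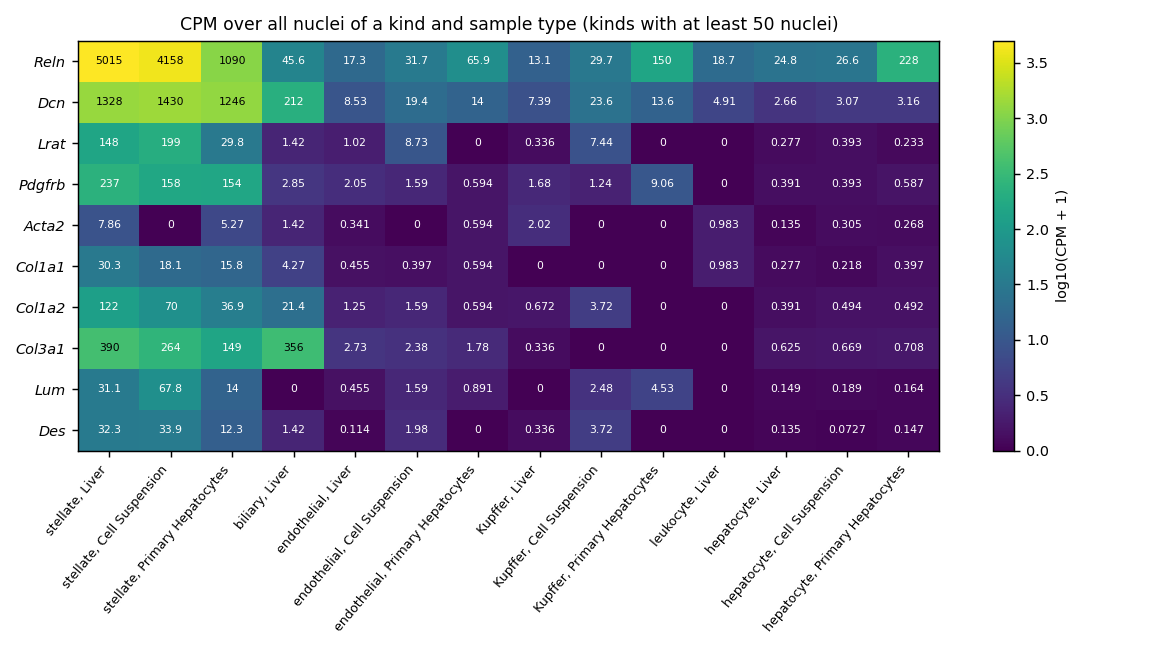
Heat map of the CPM of the 10 genes (rows) over all nuclei of a kind and sample type (columns, kinds with at least 50 nuclei), with the value printed in each field and the colour on a log10(CPM + 1) scale. The stellate columns hold the highest value of each gene in each sample type except Acta2 in Cell Suspension (0 CPM against 0.305 CPM in hepatocyte nuclei), and Reln is the row with 228 CPM in hepatocyte nuclei of Primary Hepatocytes against 24.8 CPM in those of Liver.

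The 250 bases before the RefSeq transcription start are shown for 4 of the genes, a retinoid gene, the reelin gene and a pair of fibrillar collagens, because these 4 were lower in the stellate nuclei of Primary Hepatocytes under every normalization tried (below). They were read from RefSeq on GRCm38.p6, whose table matched 6 of the 10 genes, and run 5′ to 3′ on the strand of the gene. Capitals mark 3 words searched on either strand. The word for the GC box was GGGCGG. The word for the box bound by the factor NF-Y was CCAAT. The word for the box near the start of many regulated genes was TATAAA. No 2 of the marked words overlapped. The stretches are chr5:22344706-22344955 (minus strand) for Reln, chr3:82903975-82904224 (minus strand) for Lrat, chr6:4505368-4505617 (plus strand) for Col1a2 and chr1:45311288-45311537 (plus strand) for Col3a1. The GENCODE model of Col1a2 begins further upstream, at chr6:4504814, so that the Col1a2 stretch lies inside that model.
Reln: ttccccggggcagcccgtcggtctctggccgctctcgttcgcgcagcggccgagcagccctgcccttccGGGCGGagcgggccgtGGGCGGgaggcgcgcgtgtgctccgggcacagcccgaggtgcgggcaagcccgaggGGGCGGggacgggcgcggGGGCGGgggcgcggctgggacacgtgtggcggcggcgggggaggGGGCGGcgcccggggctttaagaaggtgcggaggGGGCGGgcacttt
Lrat: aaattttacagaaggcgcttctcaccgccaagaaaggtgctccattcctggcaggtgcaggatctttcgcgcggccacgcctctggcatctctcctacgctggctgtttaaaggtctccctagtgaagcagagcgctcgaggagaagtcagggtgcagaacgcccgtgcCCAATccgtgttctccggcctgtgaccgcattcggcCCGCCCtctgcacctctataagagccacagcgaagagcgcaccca
Col1a2: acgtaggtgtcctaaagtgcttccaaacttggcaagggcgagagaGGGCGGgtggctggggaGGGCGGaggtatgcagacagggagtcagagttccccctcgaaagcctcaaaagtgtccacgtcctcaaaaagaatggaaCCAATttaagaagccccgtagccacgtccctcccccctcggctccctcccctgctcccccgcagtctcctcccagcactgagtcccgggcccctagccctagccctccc
Col3a1: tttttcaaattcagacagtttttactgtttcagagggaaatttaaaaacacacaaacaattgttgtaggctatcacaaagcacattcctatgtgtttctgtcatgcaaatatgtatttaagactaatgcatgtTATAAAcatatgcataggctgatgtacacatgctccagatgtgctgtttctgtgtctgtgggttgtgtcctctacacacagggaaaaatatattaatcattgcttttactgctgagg
The Reln stretch held 6 GGGCGG words at a GC content of 80%. The Lrat stretch held 1 GGGCGG and 1 CCAAT at 59.2%, that of Col1a2 2 GGGCGG and 1 CCAAT at 62%, and that of Col3a1 1 TATAAA at 35.2%. Of 32851 promoters of the same length, 32.7% held a GGGCGG, 33.8% a CCAAT and 12.4% a TATAAA, and their median GC content was 52.4%. No word was shared by all 4, and such a match is a description of the letters alone.

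Liver and Cell Suspension were compared to ask how the stellate nuclei that were left differed after the collagenase step and isolation. The first perfusion preceded both samples and is not part of this comparison. None of the 10 genes passed the test, with edgeR's quasi-likelihood test on the UMIs summed per sample and Benjamini-Hochberg adjustment over 14340 genes, of which 2.27% were called, 0.83% as higher and 1.44% as lower. At an unadjusted p under 0.05 there were 6, namely Col3a1, Reln, Col1a2, Lum, Pdgfrb and Acta2. This count cannot be set beside the 2.27% of all genes, which were called at the adjusted threshold, and is no result about the 10 genes. DESeq2 called 1 of the 10, Lum, as higher. All 10 genes passed the minimum of 10 UMIs. The test used 8 Liver samples, 8 Primary Hepatocytes samples and 7 Cell Suspension samples, since the Cell Suspension sample of mouse 7 had 9 stellate nuclei. In stellate nuclei, the fitted values and the ranges and medians of the 10 genes in Cell Suspension are those of the other 7 samples below. Counts of mice, marker sums, levels and UMIs over all stellate nuclei, unspliced shares and the plots of single samples include all 8.

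The collagens and Pdgfrb gave lower values in Cell Suspension that did not pass. Col3a1, which encodes the chain of type III collagen, ran from 281 to 465 CPM in Liver with a median of 378 and from 181 to 362 CPM in Cell Suspension with a median of 277 (log2 fold change -0.75 ± 0.23 SE, adjusted p = 0.0637). It was lower in 8 of 8 mice, with overlapping ranges. Pdgfrb, the receptor for PDGF-B that drives stellate cell division, had medians of 232 CPM in Liver and 172 CPM in Cell Suspension (log2 fold change -0.71 ± 0.26 SE, adjusted p = 0.13) and was also lower in 8 of 8 mice. Lum, which encodes the collagen-binding proteoglycan lumican, had a higher value in Cell Suspension, at medians of 23.5 and 63 CPM (log2 fold change 1.19 ± 0.41 SE, adjusted p = 0.112). It was higher in 5 of 8 mice. Lrat (log2 fold change 0.37 ± 0.27 SE, adjusted p = 0.488) and Dcn (0.05 ± 0.21 SE, adjusted p = 0.935) also had values above 0. These values moved with the scaling. With RLE factors (a median-ratio scaling) in place of TMM, the median over all genes went from -0.37 to -0.0042 on the log2 scale, the value of Col3a1 to -0.37 (adjusted p = 0.594) and the value of Pdgfrb to -0.33 (adjusted p = 0.662), while Lum was called as higher (1.56, adjusted p = 0.0298). Leaving out mouse 8 gave 3 calls, all lower: Col3a1 (log2 fold change -0.91, adjusted p = 0.0253), Reln (-0.67, adjusted p = 0.0383) and Pdgfrb (-0.9, adjusted p = 0.0383), and leaving out mouse 4 or mouse 5 gave 1, Col3a1 (adjusted p = 0.0498 and 0.0412).

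After 24 hours of culture the genes of the resting cell were lower, and so were others of the 10, among them Col1a2. In Primary Hepatocytes against Liver, 8 of the 10 genes were lower and none was higher, beside 24.8% of all genes called, 16.6% lower and 8.2% higher. The median log2 fold change of the 10 was -1.62 and that of all genes -0.27. The scaling moved the level of all genes: with the RLE factors in place of TMM, the median of all genes was 0.18 and that of the 10 genes -1.14, and the calls over all genes went from 1176 higher and 2381 lower to 2114 higher and 1162 lower. The genes called lower numbered 5 with RLE (Reln, Lrat, Col1a2, Col3a1 and Des) and 4 with DESeq2 (without Des). Dcn, Lum and Pdgfrb were thus called under TMM and not under RLE or DESeq2.

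Reln, which encodes the secreted glycoprotein reelin, was lower in Primary Hepatocytes than in both other sample types. Its level ran from 3794 to 5843 CPM in Liver with a median of 5088, from 3496 to 5340 CPM in Cell Suspension with a median of 4311, and from 613 to 1508 CPM in Primary Hepatocytes with a median of 1002. Every Primary Hepatocytes sample lay below every sample of both other types, given without the share of all genes that separate in this way. The log2 fold change was -2.7 ± 0.19 (SE) against Liver (adjusted p = 3.45e-20) and -2.22 ± 0.19 (SE) against Cell Suspension (adjusted p = 4.11e-15), and it was called against Liver under all 20 alternative settings.

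The order was the same within pools. In pool 2 the Liver sample had 5473 CPM of Reln and the Primary Hepatocytes sample 1020 CPM. In pool 5 the Liver sample had 4611 CPM and the Primary Hepatocytes samples 1446 and 1361 CPM. With the pool as a term in the fit, 6 of the 8 genes stayed past the threshold, without Des (adjusted p = 0.283) and Lum (adjusted p = 0.0713).

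Lrat encodes lecithin retinol acyltransferase, the enzyme that makes the stored retinyl esters. It ran from 84.1 to 204 CPM in Liver with a median of 148, from 79 to 398 CPM in Cell Suspension with a median of 201, and from 0 to 64.2 CPM in Primary Hepatocytes with a median of 32.9. The Primary Hepatocytes samples lay below all others here too, again given without the share of all genes that separate in this way. They had 0 to 5 Lrat UMIs per sample and 17 in all, against 508 in Liver and 88 in Cell Suspension. Of these 17 Lrat UMIs, 14 lay in the nuclei of cluster 20 and 3 in those of cluster 27. The log2 fold change was -2.67 ± 0.36 (SE) against Liver (adjusted p = 4.37e-09) and -3.04 ± 0.4 (SE) against Cell Suspension (adjusted p = 1.02e-08).

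**Figure D2:**
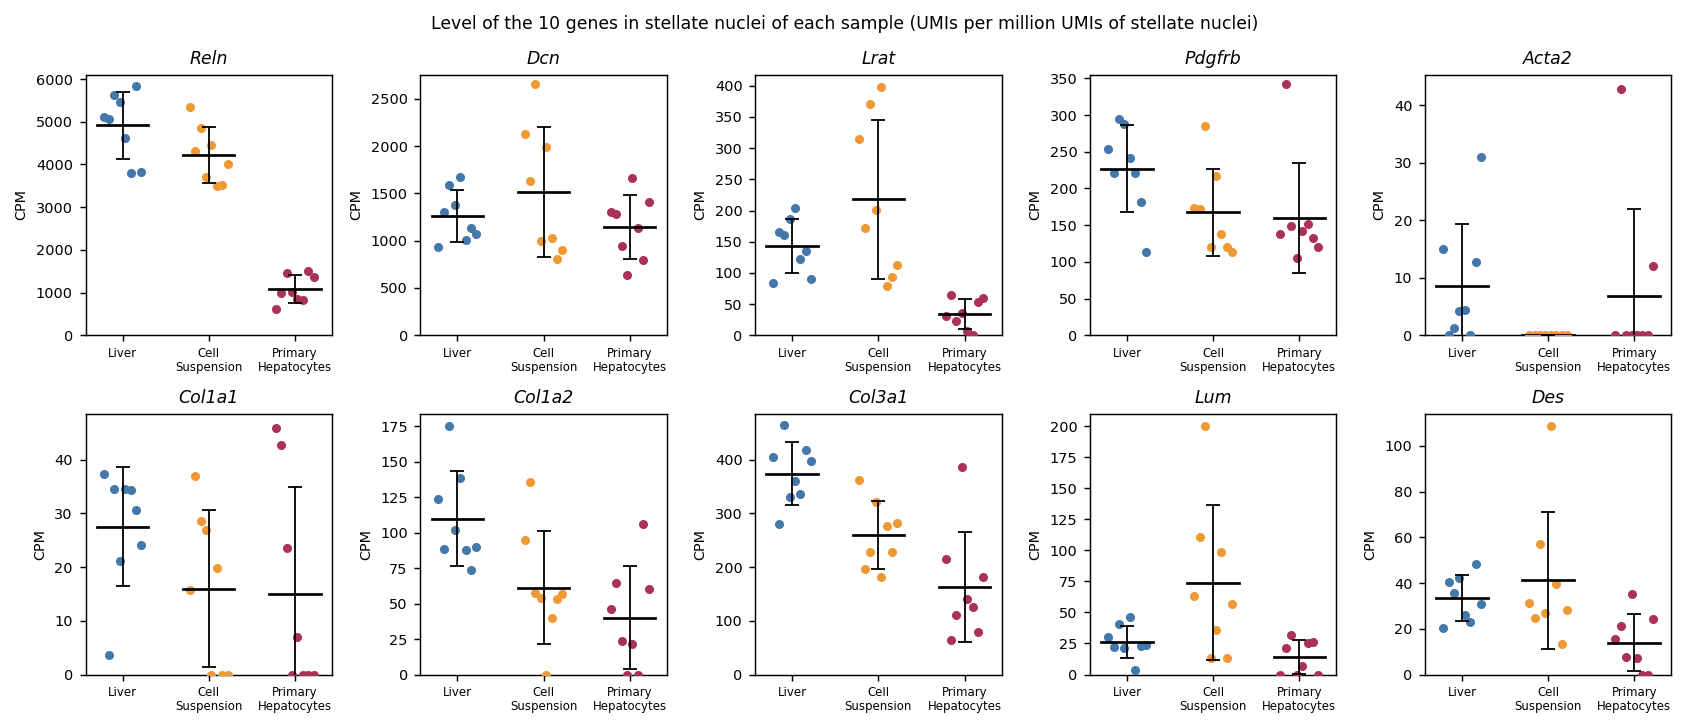
Level of each of the 10 genes in the stellate nuclei of each sample (y axis, CPM from 0, 1 panel per gene), with a point per sample, the mean as a line and the SD as a bar for Liver, Cell Suspension and Primary Hepatocytes (8 samples each, including the Cell Suspension sample with 9 nuclei). The Primary Hepatocytes points of Reln (613 to 1508 CPM) and Lrat (0 to 64.2 CPM) lie below all Liver points, while those of the other genes overlap with Liver. The share of all genes that separate in this way is not given.

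None of the 3 fibrillar collagen genes was called as higher. Col3a1 ran from 64.2 to 387 CPM in Primary Hepatocytes with a median of 134, against a median of 378 in Liver, and was lower in 7 of 8 mice (log2 fold change -1.78 ± 0.23 SE, adjusted p = 1.86e-09). The ranges overlapped through the Primary Hepatocytes sample of mouse 4, at 387 CPM. Col1a2, which encodes the second chain of type I collagen, had a median of 95.6 CPM in Liver and 34.8 CPM in Primary Hepatocytes, with 2 samples at 0 (log2 fold change -2.03 ± 0.35 SE, adjusted p = 3.65e-06). Col1a1, the partner chain, did not pass, at 30.3 CPM over all Liver stellate nuclei and 15.8 CPM over those of Primary Hepatocytes, the latter from 9 UMIs (log2 fold change -1.29 ± 0.51 SE, adjusted p = 0.0537). It passed as lower with spliced UMIs only (log2 fold change -2.07, adjusted p = 0.00193), where the median of all genes was -0.63, and without mouse 1 (adjusted p = 0.0401) or mouse 2 (adjusted p = 0.0468).

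Acta2, which encodes alpha smooth muscle actin, was close to the limit of detection in stellate nuclei. Liver gave 27 UMIs (7.86 CPM), Cell Suspension gave 0 and Primary Hepatocytes gave 3 (5.27 CPM). A count of 0 allows up to 6.78 CPM in Cell Suspension over all its stellate nuclei. The Liver value was 1.16 times this limit, leaving out the counting error of its own 27 UMIs. The level in Primary Hepatocytes was 0.67 times that in Liver, with an exact 95% interval from 0.13 to 2.18 for counting error. In the fit Acta2 passed in neither comparison with Liver, at adjusted p = 0.229 for Cell Suspension, where the unadjusted p was 0.0272, and adjusted p = 0.457 for Primary Hepatocytes.

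The Acta2 UMIs of Liver lay in 17 of 880 stellate nuclei. In these, 5 smooth muscle markers (Myh11, Cnn1, Actg2, Lmod1 and Myocd) summed to 674 CPM, against 83.7 CPM in the 863 nuclei without a UMI of Acta2. Reln stood at 4011 CPM in the 17 nuclei and at 5032 CPM in the others. Smooth muscle markers over all stellate nuclei fell between 55.6 and 272 CPM in the Liver samples, between 0 and 217 CPM in Cell Suspension, where 4 of the 5 were at 0, and between 21.4 and 46 CPM in Primary Hepatocytes. Their part in the Acta2 values was not tested.

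Des encodes desmin, an intermediate filament of muscle and of rodent stellate cells. Its median was 33.4 CPM in Liver and 11.6 CPM in Primary Hepatocytes, from 7 UMIs in all, and it was lower in 8 of 8 mice (log2 fold change -1.81 ± 0.49 SE, adjusted p = 0.00335). Lum stood at medians of 23.5, 63 and 14.2 CPM in Liver, Cell Suspension and Primary Hepatocytes, with 107, 30 and 8 UMIs. Primary Hepatocytes were below Liver (log2 fold change -1.45 ± 0.54 SE, adjusted p = 0.0381) and below Cell Suspension (-2.63 ± 0.59 SE, adjusted p = 0.0008). The call against Liver was lost without mouse 1, 2, 5, 7 or 8, with adjusted p from 0.0909 to 0.163.

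Pdgfrb and Dcn were nearer to the Liver level. Pdgfrb had a median of 140 CPM in Primary Hepatocytes against 232 in Liver (log2 fold change -1.02 ± 0.24 SE, adjusted p = 0.000499) and was lower in 6 of 8 mice. With RLE its log2 fold change was -0.52 (adjusted p = 0.101). Dcn, which encodes the collagen-binding proteoglycan decorin, ran from 929 to 1678 CPM in Liver and from 633 to 1661 CPM in Primary Hepatocytes, with medians of 1220 and 1209. Its log2 fold change was -0.61 ± 0.2 (SE, adjusted p = 0.017) with TMM and -0.11 (adjusted p = 0.752) with RLE, and it was lost without mouse 2, 3, 4 or 7, at adjusted p from 0.0595 to 0.276. Dcn was lower in 5 of 8 mice and higher in 3, so that a difference from Liver depended on the scaling.

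Primary Hepatocytes were set against Cell Suspension to separate culture from isolation. In this comparison 5 of the 10 genes were lower and none was higher, beside 10.8% of all genes called, 6.56% lower and 4.29% higher. These were Reln, Lrat and Lum, given above, Col3a1 (log2 fold change -1.03 ± 0.28 SE, adjusted p = 0.00605) and Dcn (-0.67 ± 0.22 SE, adjusted p = 0.0304). Reln and Lrat did not overlap between the 2 sample types, a description given without the share over all genes. The call of Col3a1 was lost without mouse 2 (adjusted p = 0.0517) or mouse 3 (adjusted p = 0.0529). That of Dcn was lost with RLE (adjusted p = 0.0662) and without mouse 1, 2, 3, 7 or 8, at adjusted p from 0.0804 to 0.404. Since the 2 comparisons of Primary Hepatocytes share these samples, their values are not independent of each other.

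**Figure D3:**
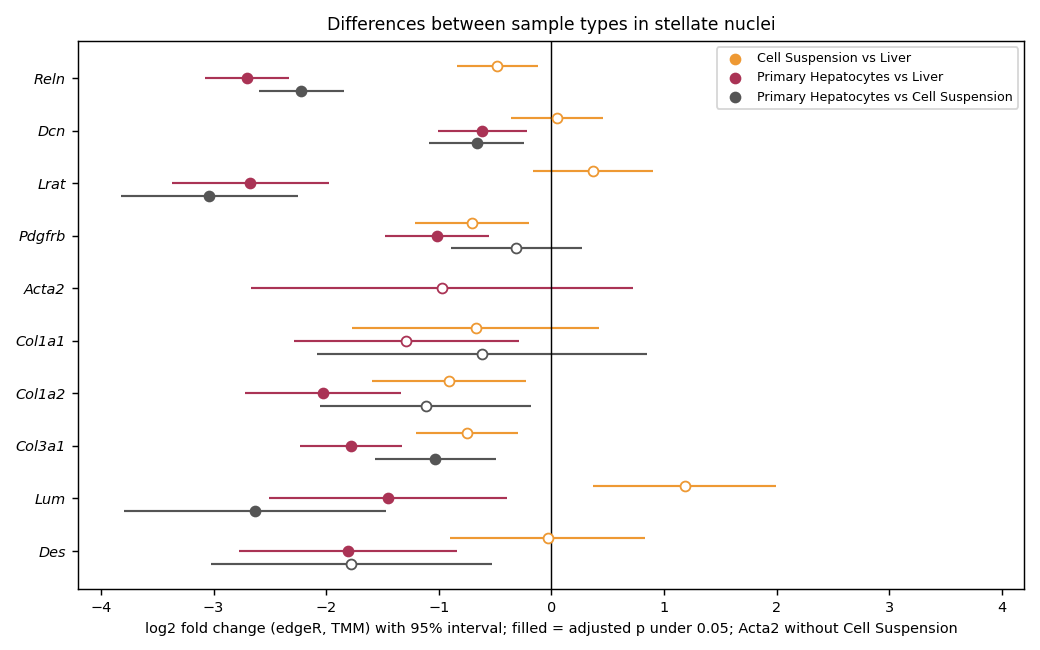
Log2 fold change (x axis, edgeR with TMM, bars are 95% intervals from the SE) of each of the 10 genes (y axis) for 3 comparisons in stellate nuclei, filled where the adjusted p over all genes was under 0.05. Reln and Lrat sit at -2.7 and -2.67 for Primary Hepatocytes against Liver, and no filled point lies above 0. Acta2, at 0 UMIs in Cell Suspension, is drawn for Primary Hepatocytes against Liver alone.

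Within Primary Hepatocytes the 17 stellate nuclei of cluster 20 and the 175 of cluster 27 are given side by side, without a test. For cultured hepatocyte and endothelial nuclei that resembled uncultured ones, the paper names partial differentiation or a wrong sample assignment as possibilities. Whether either holds for the 17 stellate nuclei was not tested. Reln stood at 2260 CPM in the 17 nuclei and at 698 CPM in the 175, from 323 and 298 UMIs. Lrat stood at 98 and 7.03 CPM, from 14 and 3 UMIs. Dcn went the other way, at 644 and 1448 CPM, as did Pdgfrb, at 91 and 176 CPM, and Col3a1, at 84 and 171 CPM. The 17 nuclei were also deeper, with a median of 8290 UMIs against 1984. Without them, the call of Dcn was lost against Liver (log2 fold change -0.4, adjusted p = 0.152) and against Cell Suspension (-0.45, adjusted p = 0.179). That of Col3a1 against Cell Suspension was lost as well (-0.78, adjusted p = 0.0654), and Des gained a call as lower against Cell Suspension (-2.11, adjusted p = 0.0473).

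The share of nuclei with a UMI was read at equal depth by thinning each nucleus to 1000 UMIs, which left out 68, 25 and 19 shallower stellate nuclei of Liver, Cell Suspension and Primary Hepatocytes. Reln was then found in 92.4%, 93.5% and 45.1% of the stellate nuclei, against 93.8%, 93.2% and 58.9% before thinning. For Lrat the thinned shares were 13.5%, 17.9% and 1.16%, and the unthinned ones 36.6%, 33.1% and 6.25%. Dcn gave 63.3%, 61.8% and 63%, and 83.3%, 74.3% and 77.6% before thinning. Of the Primary Hepatocytes nuclei with a UMI of Dcn, 64.4% also had one of Reln, against 96% in Liver and 97.3% in Cell Suspension.

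Reln showed the opposite direction in hepatocyte nuclei, with Primary Hepatocytes levels below their pool's free RNA in most mice and above in others (below). It ran from 13.9 to 39.7 CPM in Liver with a median of 24.8, from 12.6 to 43.1 CPM in Cell Suspension with a median of 22.6, and from 39 to 615 CPM in Primary Hepatocytes with a median of 153. It was higher in Primary Hepatocytes than in Liver in 8 of 8 mice (log2 fold change 2.57 ± 0.41 SE, adjusted p = 2.82e-06) and higher than in Cell Suspension (2.46 ± 0.41 SE, adjusted p = 6.88e-06). Among 26778 genes tested, 53.7% were called against Liver, 27.4% higher and 26.3% lower, and 50.4% against Cell Suspension, with 26.9% higher and 23.5% lower. Between Cell Suspension and Liver, 22.3% were called, 8.15% higher and 14.2% lower, and edgeR called 0 of the 10 genes, with 1 (Acta2) at an unadjusted p under 0.05, which DESeq2 called as higher. Reln was the 1 member of the 10 called against Liver, and Lrat, lower at 0.233 against 0.393 CPM, was the other call against Cell Suspension.

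The ranges of Liver and Primary Hepatocytes met at the Primary Hepatocytes sample of mouse 3, with 39 CPM. The levels in Primary Hepatocytes differed between pools and within them. In pool 2 the Liver sample had 39.7 CPM and the Primary Hepatocytes sample 161 CPM. In pool 5 the values were 29.4 CPM and 39 and 77.7 CPM. Pools 3 and 4 held no Liver sample. Their Primary Hepatocytes samples had 144, 390 and 615 CPM in pool 3 and 220 and 65 CPM in pool 4. With the pool as a term the log2 fold change was 1.32 ± 0.45 (SE, adjusted p = 0.0174). All 18 alternatives gave a call in this direction.

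By mouse, the log2 ratio of Reln in Primary Hepatocytes to Liver was -2.24 ± 0.46 (SD, n = 8) in stellate nuclei and 2.65 ± 1.37 (SD, n = 8) in hepatocyte nuclei. The difference of -4.89 had the same sign in 8 of 8 mice (two-sided exact sign-flip permutation test, p = 0.00781, which is the lower limit for 8 pairs, adjusted p = 0.0273 over 7 tests). For Dcn the same difference was -0.48 (adjusted p = 0.481), and for Col3a1 it was -1.5 (adjusted p = 0.0547).

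**Figure D4:**
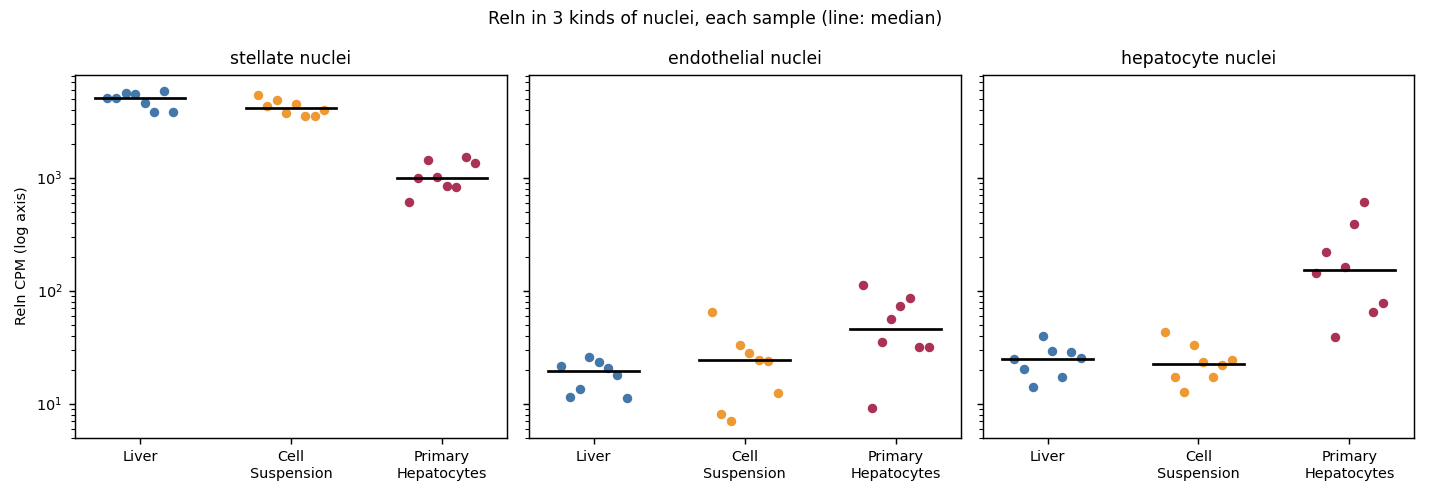
Reln CPM per sample (y axis, log scale) in stellate, endothelial and hepatocyte nuclei of Liver, Cell Suspension and Primary Hepatocytes, with a point per sample and the median as a line. From Liver to Primary Hepatocytes the median goes from 5088 to 1002 CPM in stellate nuclei and from 24.8 to 153 CPM in hepatocyte nuclei.

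The nuclei that held the Reln UMIs differed between the sample types. Of all Reln UMIs of Liver, 82.2% lay in stellate and 16.6% in hepatocyte nuclei. For Cell Suspension these shares were 48.6% and 48.3%, and for Primary Hepatocytes they were 2.28% and 96.8%. The share of hepatocyte nuclei with a UMI of Reln was 15.9%, 10.5% and 33.7%, and after thinning to 1000 UMIs 2.74%, 2.85% and 13.1%. The ratio of Reln to Dcn UMIs was 3.78, 2.91 and 0.875 in stellate nuclei of Liver, Cell Suspension and Primary Hepatocytes, and 9.33, 8.66 and 72.1 in hepatocyte nuclei. Nuclei annotated as Kupffer cells, the resident macrophages, also had a higher level over all their nuclei in Primary Hepatocytes, with 39, 24 and 33 Reln UMIs and 13.1, 29.7 and 149.5 CPM in the same order, given without a test. The ratio of Reln to Dcn UMIs in Kupffer nuclei was 1.77, 1.26 and 11, the last from 3 Dcn UMIs. Those of Primary Hepatocytes numbered 77, whereas the paper describes Kupffer cells as absent from the culture. What these 77 nuclei are was not tested. In barcodes with under 100 UMIs, which hold mostly free RNA, Reln lay between 88.2 and 176 CPM and Dcn between 18.4 and 48.7 CPM over the 6 pools. Hepatocyte Reln in Primary Hepatocytes lay below these barcodes of its own pool in mice 1, 3, 4, 7 and 8 (144, 39, 161, 65 and 77.7 CPM against 176, 88.2, 162, 137 and 88.2 CPM). It lay above them in mice 2, 5 and 6 (220, 390 and 615 CPM against 137, 176 and 176 CPM). Dcn stood at 3.16 CPM over the hepatocyte nuclei of Primary Hepatocytes, below these barcodes of every pool. The part of free RNA in the hepatocyte and Kupffer values was not tested.

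In the sums over all nuclei, which resemble a bulk sample, 8 of the 10 genes were lower in Primary Hepatocytes than in Liver, beside 55.7% of 27269 genes called, 27.1% lower and 28.6% higher. They were Dcn, Lrat, Pdgfrb, Col1a1, Col1a2, Col3a1, Lum and Des, with log2 fold changes from -3.51 for Lrat to -1.3 for Col1a1. Reln was not among them (log2 fold change 0.36 ± 0.36 SE) and was higher than in Cell Suspension (1.4 ± 0.36 SE, adjusted p = 0.00174), where 7 of the other genes were lower. That comparison called 50.8% of all genes, 27.4% as higher and 23.4% as lower. In Cell Suspension against Liver 6 of the 10 were lower, beside 20.6% of all genes called, 12.6% lower and 8.01% higher. Such sums do not separate fewer stellate nuclei from less RNA per nucleus.

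Endothelial nuclei carried little of these genes, and 7 of the 10 reached 10 UMIs. Over all their nuclei, the Reln level of each sample type lay below the 88.2 to 176 CPM of the barcodes with under 100 UMIs, and Lrat ranged from 0 to 6.12 CPM in those barcodes over the 6 pools. The Lrat level of Cell Suspension, 8.73 CPM, lay above that range, and those of Liver and Primary Hepatocytes within it. The calls below are given as differences in UMIs and are not read as expression by endothelial cells. The part of free RNA in them was not tested. Reln was higher in Primary Hepatocytes than in Liver, at 65.9 against 17.3 CPM (log2 fold change 1.66 ± 0.3 SE, adjusted p = 2.16e-05), beside 33.8% of 18279 genes called, 15.4% higher and 18.4% lower. With the pool as a term this call was lost (log2 fold change 0.64, adjusted p = 0.166). Lrat was higher in Cell Suspension than in Liver, at 22 UMIs and 8.73 CPM against 9 UMIs and 1.02 CPM (adjusted p = 0.00846), beside 3.9% of all genes called, 2.03% higher and 1.87% lower. The call was lost with the pool as a term (adjusted p = 0.336) and without mouse 1 (adjusted p = 0.139). In Primary Hepatocytes Lrat was at 0, which allows up to 0.891 CPM. The Cell Suspension value was 9.8 times this limit, leaving out its own counting error. Against Cell Suspension, where 20% of genes were called, 9.33% higher and 10.7% lower, Reln passed narrowly as higher (log2 fold change 0.9 ± 0.33 SE, adjusted p = 0.0499) and was lost in 10 of 19 alternatives.

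The splicing state of the UMIs was read as a separate measure. Nuclear RNA is rich in unspliced transcripts, and the share of unspliced UMIs over all genes in stellate nuclei averaged 76.8% ± 1.68 (SD, n = 8) for Liver samples, 69% ± 3.56 for Cell Suspension samples and 63.2% ± 1.37 for Primary Hepatocytes samples. Of the 10 genes, Reln and Dcn had the 20 UMIs per sample set as a minimum in enough samples to be tested. Together they gave 6 tests. These compare a gene's own share between sample types and do not set it against the lower share over all genes. How far the differences below go beyond that of all genes was not tested.

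Dcn had a lower unspliced share after isolation. Liver samples averaged 62.3% ± 7.53 unspliced (SD, n = 8), Cell Suspension samples 37.1% ± 13.3 (SD, n = 8) and Primary Hepatocytes samples 44.4% ± 7.42 (SD, n = 7). The difference from Liver was -25.2 percentage points in Cell Suspension and -17.9 in Primary Hepatocytes (two-sided exact permutation test, adjusted p = 0.0028 for both). Taken by mouse, the difference in Primary Hepatocytes was -18.4 points over 7 pairs (exact sign-flip test, adjusted p = 0.0625). Cell Suspension and Primary Hepatocytes differed by 7.39 points, within the spread (exact permutation test, adjusted p = 0.255), and without mouse 7 by 12.6 points (adjusted p = 0.0385). In a fit of the unspliced UMIs alone, Dcn was lower in Cell Suspension than in Liver (log2 fold change -0.83, adjusted p = 0.0329), whereas over all its UMIs the value was 0.05.

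Reln was mostly unspliced in each sample type, with 90.3% ± 1.14 for Liver samples, 86.5% ± 3.49 for Cell Suspension samples and 84.9% ± 8.21 for Primary Hepatocytes samples (SD, n = 8 each). Cell Suspension was lower than Liver by 3.86 points (exact permutation test, adjusted p = 0.0242), a call lost without mouse 1, 2, 6 or 8 (adjusted p from 0.0571 to 0.0746) and when taken by mouse (adjusted p = 0.0625). Primary Hepatocytes did not pass against Liver (exact permutation test, adjusted p = 0.0834), and passed without mouse 3 (adjusted p = 0.0498) or mouse 4 (adjusted p = 0.0303). Lrat lay at the other end: of 745 Lrat UMIs over all nuclei none was counted as unspliced, 744 were spliced and 1 was ambiguous. In Liver stellate nuclei 58.4% of the Col3a1 UMIs, 47.4% of those of Col1a2 and 25% of those of Col1a1 were unspliced.

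**Figure D5:**
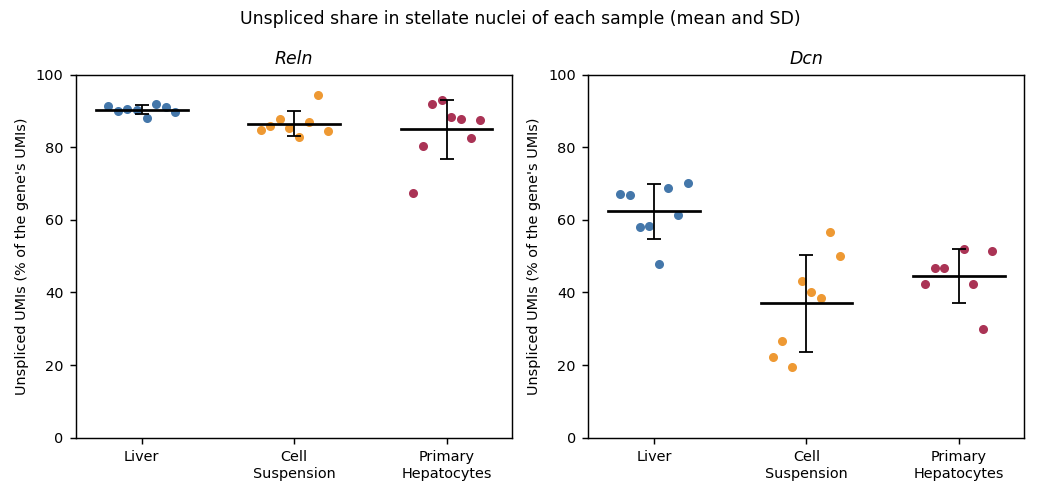
Unspliced share of the UMIs of Reln and Dcn (y axis, percent) in the stellate nuclei of each sample with at least 20 UMIs of the gene, with the mean and SD of each sample type. Dcn goes from 62.3% in Liver to 37.1% in Cell Suspension and 44.4% in Primary Hepatocytes, and Reln stays between 84.9% and 90.3% on average.

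The counts of the gene lists below, for Primary Hepatocytes against Liver, stand beside 16.6% of all genes called lower and 8.2% higher with TMM, and with RLE beside 1162 lower and 2114 higher of 14340 genes, with a median over all genes of -0.27 and 0.18. A share of a list near these is not a result about the list. Other genes of the resting state followed Lrat and Reln in culture. Of 15 genes of retinoid storage and quiescence, members included, 13 were lower in Primary Hepatocytes than in Liver and 0 were higher. Lrat and Reln are themselves among the 13. The median log2 fold change of the list was -2.7, which is the value of Reln, beside -0.27 for all genes. The same numbers, 13 lower and 0 higher, were found against Cell Suspension, and in Cell Suspension against Liver 0 of 15 were called by edgeR, while DESeq2 called 2 as higher (Hand2 and Ecm1). Vipr1, a receptor for vasoactive intestinal peptide, went from 518 to 65 CPM (log2 fold change -3.43 ± 0.29 SE, adjusted p = 1e-16). Colec11, a secreted collectin, went from 396 to 57.9 CPM (log2 fold change -3.19 ± 0.29 SE, adjusted p = 3.67e-15). Angptl6 had 217 UMIs in Liver and 1 in Primary Hepatocytes, a ratio of 36.0 with an exact 95% counting interval from 6.39 to 1427, and Adamtsl2 had 245 and 2 UMIs, a ratio of 20.3 with an interval from 5.56 to 169. With RLE 12 of the 15 were lower. Tcf21, a transcription factor of mesenchymal cells, had 9 UMIs after isolation and 1 after culture, a ratio of 11.6 with an interval from 1.6 to 508.

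The genes of collagen and its processing moved in both directions. Of 20 genes tested, 8 were lower in Primary Hepatocytes than in Liver and 5 were higher, with a median log2 fold change of -0.38 with TMM and 0.097 with RLE. The 8 lower ones were mainly matrix components (Col1a2, Col3a1, Col5a1, Col6a3, Postn, Sparc) with Loxl1 and Adamts2, and the 5 higher ones were enzymes that modify or cross-link collagen chains (Plod2, P4ha1, P4ha2, Lox and Loxl2). Lox, a lysyl oxidase, went from 2.04 to 31.6 CPM (log2 fold change 3.13 ± 0.61 SE, adjusted p = 3.76e-05). In Cell Suspension it had 0 UMIs. The Primary Hepatocytes value was 4.66 times the limit that this count allows, leaving out its own counting error. Plod2, a lysyl hydroxylase, stood at 65.5 CPM in Cell Suspension and 279 CPM in Primary Hepatocytes (log2 fold change 2 ± 0.39 SE, adjusted p = 8.65e-05). P4ha2, a prolyl hydroxylase subunit, had 11.3 and 65 CPM in the same order (log2 fold change 2.28 ± 0.65 SE, adjusted p = 0.0118).

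Among the matrix genes of that list, Col5a1 went from 524 CPM in Liver to 170 CPM in Primary Hepatocytes (log2 fold change -2.1 ± 0.22 SE, adjusted p = 6.65e-13). Postn, which encodes periostin, went from 85 to 21.1 CPM (log2 fold change -2.45 ± 0.42 SE, adjusted p = 3.12e-06). Loxl1 had 75 and 2 UMIs, a ratio of 6.22 with an exact 95% counting interval from 1.66 to 52.3. In Cell Suspension against Liver Col5a2 alone was called by edgeR, as lower (131 against 233 CPM, log2 fold change -1.12 ± 0.28 SE, adjusted p = 0.0142), and with RLE it was not, while Fn1 was called as higher.

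Of 7 small leucine-rich proteoglycans 5 could be tested, and 4 were lower in Primary Hepatocytes than in Liver (Dcn, Lum, Bgn and Prelp), of which Prelp alone was called with RLE. The median log2 fold change of the 5 was -1.45 with TMM and -1 with RLE. Prelp stood at 90.5 CPM in Liver, 185 CPM in Cell Suspension and 33.4 CPM in Primary Hepatocytes. It was higher in Cell Suspension than in Liver (log2 fold change 1 ± 0.29 SE, adjusted p = 0.0425) and lower in Primary Hepatocytes than in Liver (-1.8 ± 0.37 SE, adjusted p = 8.89e-05). Bgn, which encodes biglycan, had 197, 300.4 and 125 CPM, and Primary Hepatocytes were below Cell Suspension (log2 fold change -1.66 ± 0.33 SE, adjusted p = 9.87e-05).

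Contractile genes fell where they were called. Of 12 genes 10 could be tested, and 4 were lower in Primary Hepatocytes than in Liver (Des, Myl9, Mylk and Myh11) and 0 higher, or 3 lower with RLE (without Myl9). Their median log2 fold change was -1.39 with TMM and -0.96 with RLE. Against Cell Suspension 1 of the 10 was called, Mylk, as lower, beside 6.56% of all genes called lower. The median of the 10 was then 0.39 beside 0.12 for all genes, the other direction. Mylk, the myosin light chain kinase, went from 478 to 116 CPM (log2 fold change -2.48 ± 0.23 SE, adjusted p = 3.24e-15) and was also below Cell Suspension, at 429 CPM (-2 ± 0.25 SE, adjusted p = 3.14e-09). Myh11, a smooth muscle myosin chain and one of the smooth muscle markers above, went from 79.5 to 19.3 CPM (log2 fold change -2.58 ± 0.47 SE, adjusted p = 7.88e-06).

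Signals and responses tied to activation moved both ways. Of 21 genes 19 could be tested, and in Primary Hepatocytes against Liver 7 were higher, among them Thbs1, Ccn1, Cxcl1 and Ccl2, and 5 were lower (Pdgfra, Pdgfrb, Mmp2, Timp2 and Thbs2). With RLE 8 were higher, Vim added, and 2 were lower, Timp2 and Thbs2. The median log2 fold change of the 19 was 0.62 with TMM and 1.07 with RLE. The chemokine genes Cxcl1 and Ccl2 went from 9.9 to 112 CPM (log2 fold change 2.93 ± 0.42 SE, adjusted p = 2.4e-08) and from 1.46 to 36.9 CPM (log2 fold change 3.68 ± 0.62 SE, adjusted p = 1.75e-06).

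Thbs1, which encodes thrombospondin 1, an activator of latent TGF-beta, went from 4.66 to 56.2 CPM (log2 fold change 2.99 ± 0.54 SE, adjusted p = 1.06e-05). Against Cell Suspension, with 1 UMI there and 32 in Primary Hepatocytes, its ratio was 24.9 with an exact 95% counting interval from 4.15 to 1013. Ccn1, a matricellular protein gene of the early response, was the gene of this list called after isolation, at 18.6 CPM in Liver and 215 CPM in Cell Suspension (log2 fold change 2.92 ± 0.4 SE, adjusted p = 1.59e-07). The matrix protease gene Mmp2 stood at 36.1 CPM in Cell Suspension and 7.02 CPM in Primary Hepatocytes, from 4 UMIs (adjusted p = 0.0196), and its inhibitor Timp2 at 76.8 and 26.3 CPM (adjusted p = 0.00483).

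The basement membrane list had 2 of 8 genes higher in Primary Hepatocytes than in Liver, the type IV collagen chains, and 2 lower, laminin chains, and with RLE 4 were higher and 1 lower. The median log2 fold change of the 8 was 0.15 with TMM and 0.64 with RLE, and with 2 of 8 genes on each side the list gives no direction. Col4a2 went from 168 to 562 CPM (log2 fold change 1.21 ± 0.23 SE, adjusted p = 2.64e-05) and Col4a1 from 266 to 669 CPM (0.85 ± 0.25 SE, adjusted p = 0.0061). Lama2 stood at 345 CPM in Liver, 147 CPM in Cell Suspension and 38.6 CPM in Primary Hepatocytes, and was called lower in Cell Suspension (log2 fold change -1.35 ± 0.27 SE, adjusted p = 0.000708) and in Primary Hepatocytes (-3.49 ± 0.31 SE, adjusted p = 1.18e-15) against Liver. Lamc1 had 471 and 393 CPM in Liver and Primary Hepatocytes (-0.82 ± 0.22 SE, adjusted p = 0.00263), and it was not called with RLE. Markers of endothelial nuclei, which also make type IV collagen, ran from 185 to 441 CPM in the stellate nuclei of Liver and from 106 to 1089 CPM in those of Primary Hepatocytes, and their part in these values was not tested. Over all stellate nuclei the higher sum of these markers in Primary Hepatocytes lay mainly in Arhgap31 (above).

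Vldlr and Lrp8 encode receptors of reelin. Vldlr had 5 UMIs (1.46 CPM) in Liver and 15 UMIs (26.3 CPM) in Primary Hepatocytes (log2 fold change 3.21 ± 0.68 SE, adjusted p = 0.000136), and Lrp8 was called as higher as well. Both calls were lost with the pool as a term. Of 6 PDGF ligands and receptors 5 could be tested, and 3 were lower in Primary Hepatocytes than in Liver, or 1 with RLE, Pdgfd, with a median log2 fold change of -0.94 with TMM and -0.45 with RLE. This ligand of Pdgfrb went from 208 to 28.1 CPM (log2 fold change -3.17 ± 0.37 SE, adjusted p = 4.22e-11) and stood at 142 CPM in Cell Suspension. Pdgfra, the second receptor, had 190 and 133 CPM (-0.94 ± 0.25 SE, adjusted p = 0.00225).

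The 3 closest genes were looked up for each of Reln, Col1a1 and Acta2 by the likeness of their levels over 14 sums of a kind of nuclei and a sample type, among 11367 genes. These sums share pools, mice and free RNA, and the correlations are given as a description. Wdr66 (Pearson's r = 0.979), Sntg1 (0.977) and Arvcf (0.969) were most like Reln. Col16a1 (0.989), followed by Rbm46 and Tnfrsf11b, was most like Col1a1, and Matn2 (0.794), Neto1 (0.779) and Arl13b (0.772) were most like Acta2.

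The genes lie apart in the genome (GRCm38 with the GENCODE vM21 gene models), except Dcn (chr10:97479609-97518143, plus strand) and Lum (chr10:97565128-97572703, plus strand), which are neighbours. Reln (chr5:21884454-22344702, minus strand) spans 460 kb and overlaps 7 small gene models, 3 of them on its strand, so that UMIs in its introns could be split with these. Lrat and Des each overlap a gene model on the opposite strand, and Col1a2 and Col3a1 each overlap one on the same strand. Whether the counting used strand is not given in the sources used here, and values of these genes may hold UMIs of the overlapping models.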

How the data were processed

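Single-nucleus RNA was measured with a droplet 3′ assay in 24 hashtagged samples in 6 pools. The authors converted reads with bcl2fastq 2.19.0, quantified spliced, unspliced and ambiguous UMIs with Salmon Alevin and Alevin-fry on GRCm38, assigned hashtags, removed doublets with scDblFinder and clustered the nuclei in Seurat. The deposited counts are whole UMIs per gene and barcode. The deposited margin of the hashtag assignment is a fraction. One hashtag label, CD2, was read as the Cell Suspension of mouse 2. Columns of other samples numbered 0.

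The 3 kinds of UMIs were summed per gene, sample and kind of nuclei. Sums of at least 10 nuclei and genes of at least 10 UMIs entered edgeR 4.0.16 (TMM, quasi-likelihood test, R 4.3.3) with Benjamini-Hochberg adjustment over all genes and a threshold of 0.05. Shares were compared by exact permutation tests (scipy 1.17.1), whose smallest two-sided p was 0.000155 for 8 against 8 samples. Printed CPM are not TMM-scaled. Alternatives were RLE factors, DESeq2 1.42.0, other filters, spliced or unspliced UMIs alone, the pool as a term, the mouse as a block, other minimum numbers of nuclei and leaving out each mouse. Scripts were tested on simulated data. With 200 changed genes, stellate nuclei of Primary Hepatocytes against Liver gave 100% recovery and 35 false calls, the most of all fits. Against Cell Suspension there were 4 false calls, and in Cell Suspension against Liver, with 0 changed genes, 1. The other kinds of nuclei gave 0 to 12.

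The members and gene lists were chosen with earlier results of these data known. Named beside the 10 genes were up to 4 genes per list and comparison with the largest absolute log2 fold change among those called with at least 20 CPM in 1 of the 2 groups, and the 3 genes most like Reln, Col1a1 and Acta2. Genes listed only as called were named after their values were seen. Samples of the same mouse number share a liver, which pairs them. The correlation of their deviations had a median of 0.676 between Liver and Cell Suspension over all nuclei (0.0387 in stellate nuclei) and of 0.016 between Liver and Primary Hepatocytes. Some genes of the lists are counted but not reported here by name.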

Additional observations from a re-analysis of the deposited data

Results flagged for a closer look

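The change of Reln from Liver to Primary Hepatocytes differed between stellate and hepatocyte nuclei, with a difference of -4.89 in the log2 ratio by mouse, and from Cell Suspension to Primary Hepatocytes with a difference of -4.74. Both had the same sign in 8 of 8 mice (two-sided exact sign-flip permutation test, p = 0.00781, the smallest possible, adjusted p = 0.0273 over 7 tests). The part of free RNA in the hepatocyte values was not tested.

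In 48 groups of 8 or fewer samples, 8 held a sample far from the others by Dixon's test, where chance gives about 5% of groups. Pdgfrb stood at 342 CPM in the stellate nuclei of the Primary Hepatocytes sample of mouse 2, and Col3a1 at 387 CPM in those of mouse 4. The Cell Suspension sample of mouse 2 had the highest stellate share of its type, 2.35%. The Cell Suspension sample of mouse 7 held 3 of the values over all nuclei, 119 CPM of Reln, 4.06 CPM of Pdgfrb and 8.12 CPM of Col3a1, and also the highest unspliced share of Reln in stellate nuclei, 94.3%. Pdgfrb over all nuclei was 2.97 CPM in the Primary Hepatocytes sample of mouse 3.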

How the results depend on the processing

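Of the counts, shares and comparisons recomputed under the alternatives, 460 values stayed on their side of the threshold or within 1.5 times, and 92 did not. Of the values of single genes, 2517 stayed, 224 lost a call, 40 gained one and 6 reversed. Sign changes between values called on neither side were not counted. The causes were not tested, beyond fewer genes tested under filterByExpr (edgeR's stricter filter on low counts) and fewer samples where nuclei were left out: without the nuclei of lowest demultiplexing margins (the low margins below) 7 Liver, 1 Cell Suspension and 1 Primary Hepatocytes samples were left for stellate nuclei, and the lone samples were assumed to vary like the others. Leaving out author cluster 8 was chosen after seeing the data. Low counts limit Acta2, Col1a1, Lum and Des most.

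With the mouse as a block (paired fit), no count of called members in stellate nuclei changed. The paired test of the unspliced share missed the threshold for Reln in Cell Suspension against Liver (-3.86 points, adjusted p = 0.0625) and for Dcn in Primary Hepatocytes against Liver (-18.4 points, adjusted p = 0.0625). Without ambiguous UMIs the unspliced share of Reln in Primary Hepatocytes against Liver passed, at -4.74 points.

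In stellate nuclei, Cell Suspension against Liver, 0 members and 325 genes were called. Members called were 1 with RLE, 1 with DESeq2, 1 with spliced UMIs only, 3 with unspliced UMIs only and 1 with at least 5 nuclei. Genes called were 106 with filterByExpr, 744 with spliced UMIs only, 172 with unspliced UMIs only, 144 with the pool as a term, 17 without the low margins and 60 with at least 20 nuclei. The split of higher to lower genes was 119 to 206, and 206 to 34 with RLE.

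In Primary Hepatocytes against Liver, 8 members and 3557 genes were called. Members called were 5 with RLE, 4 with DESeq2, 3 with filterByExpr and 2 without the low margins. Genes called were 1154 with filterByExpr, 1814 with spliced UMIs only, 1561 with the pool as a term, 383 without the low margins and 2351 with at least 20 nuclei.

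In Primary Hepatocytes against Cell Suspension, 5 members and 1555 genes were called. Members called were 3 with filterByExpr, 3 with spliced UMIs only, 1 with unspliced UMIs only, 0 without the low margins and 3 with at least 20 nuclei. Genes called were 876 with filterByExpr, 378 with spliced UMIs only, 19 without the low margins and 604 with at least 20 nuclei. The split was 615 to 940, and 749 to 822 with RLE.

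Log2 fold changes reversed for Dcn with unspliced UMIs only (-0.83 in Cell Suspension against Liver, 0.019 in Primary Hepatocytes against Cell Suspension) and with at least 20 nuclei (0.0041 in the latter), for Col3a1 (0.22) and Postn (4.17) in Primary Hepatocytes against Cell Suspension without the low margins, and for Prelp in Cell Suspension against Liver with unspliced UMIs only (-0.56).

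Over all nuclei, members called were 1 in place of 6 in Cell Suspension against Liver without the low margins, and with unspliced UMIs only 5 in place of 8 in Primary Hepatocytes against Liver and 2 in place of 8 against Cell Suspension.

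In endothelial nuclei, Cell Suspension against Liver, members called went from 1 to 0 with DESeq2, filterByExpr, unspliced UMIs only and the pool as a term, and to 2 with no filter. Genes called went from 712 to 325 with spliced UMIs only, 334 with the pool as a term and 237 without the low margins. Against Liver, Primary Hepatocytes had 6181 genes called, and 3818 with filterByExpr, 3421 with spliced UMIs only, 3268 with the pool as a term and 3545 without the low margins. Against Cell Suspension they had 2 members called, and 0 with DESeq2 or unspliced UMIs only and 1 with filterByExpr, spliced UMIs only, the pool as a term or without the low margins, and 3656 genes, with 1697 for spliced UMIs only and 1991 without the low margins.

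In hepatocyte nuclei, members called in Cell Suspension against Liver went from 0 to 1 with RLE, DESeq2 and unspliced UMIs only. In Primary Hepatocytes against Liver they went from 1 (Reln, higher) to 5 with spliced UMIs only, where Col1a2 (-1.37), Dcn (-0.74), Lrat (-0.98) and Pdgfrb (-1.62) were added as lower and 11903 of 20548 genes were called, 6140 higher and 5763 lower. Against Cell Suspension they went from 2 to 1 with filterByExpr, unspliced UMIs only or without author cluster 8, and to 5 without the low margins.

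Leaving out 1 mouse at a time, stellate nuclei gave 181 to 604 genes called and 0 to 3 members in Cell Suspension against Liver, and 6 to 8 members in Primary Hepatocytes against Liver and 3 to 5 against Cell Suspension. Endothelial nuclei gave 432 to 768 genes and 0 to 1 members in Cell Suspension against Liver, and 1 to 2 members in each comparison of Primary Hepatocytes. Hepatocyte nuclei gave 0 to 1 members in Cell Suspension against Liver and 1 to 2 in Primary Hepatocytes against Liver. The unspliced share differed by -4.89 to -3.45 points for Reln in Cell Suspension against Liver, by -6.65 to -2.84 points for Reln in Primary Hepatocytes against Liver and by 4.49 to 12.6 points for Dcn in Primary Hepatocytes against Cell Suspension.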

Other observations

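Dcn and Col3a1 were also found outside the stellate nuclei. In author cluster 28, 157 nuclei of Liver within the authors' biliary annotation, Dcn stood at 280 CPM and Col3a1 at 474 CPM, while Reln stood at 36.1 CPM and Lum at 0. Mesothelial markers summed to 4394 CPM in this cluster, cholangiocyte markers to 3726 CPM and portal fibroblast markers to 795 CPM, against 233, 12065 and 28.4 CPM in author cluster 30, the other cluster of this annotation. The markers of cluster 28 thus go against a purely biliary name, and their part in the values of Dcn and Col3a1 was not tested. The value of Col3a1 was above the 390 CPM of all Liver stellate nuclei, and that of Dcn below their 1328 CPM. These are values of 1 cluster, given without a test.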
